A study of Mus musculus with 4 samples.

Results

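Chemokine genes were taken as every gene whose symbol is Ccl or Cxcl followed by a digit, together with Xcl1, Cx3cl1, Pf4 and Ppbp, in RNA-seq counts of mTEChi, the epithelial cells of the thymic medulla that carry much MHC class II, from WT and Aire-KO mice. The rule used names only and no measured value. It found 42 genes, held by 51 of the 30794 RefSeq IDs in the count table, among 23003 gene symbols that could be assigned.

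Chemokines are small secreted proteins that guide the migration of leukocytes through receptors coupled to G proteins. In the thymus, stromal chemokines draw progenitors in from the blood, lead positively selected thymocytes from the cortex to the medulla and place dendritic cells beside medullary epithelial cells. Aire is a transcriptional regulator of mTEChi that is known for inducing genes otherwise restricted to peripheral tissues, and Aire-KO mTEChi lack its function.

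The series held 4 libraries, 1 WT and 1 Aire-KO from a first experiment and 1 of each from a replicate experiment. WT mice were of the C57BL/6 background and Aire-KO mice carried the Aire tm1.1Doi allele on that background. All mice were 4 weeks old, and each library came from the pooled thymi of 4 mice, from which CD45- Ly51- I-A/E-high cells were sorted. A p-value therefore measured the spread between 2 pools of each genotype, not between mice.

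The libraries held 81814963 to 175483227 counts when 1 RefSeq ID was kept per gene. Aire itself had 87229 and 36597 counts in the WT libraries and 200697 and 175884 in the Aire-KO libraries. The exons removed in this allele are not named in the sources used here, so these counts do not check the labels, and every direction below is that of the labels. Of the mTEC marker list, which includes Aire, 0 of 16 genes passed the test in either direction, and the median log2 fold change was -0.43. With experiment as a term 4 were lower in WT (Aire, Cd74, Cd80 and Tnfrsf11a), beside 9.26% of all genes, and by DESeq2 1 (Aire), beside 2.24%. The list's summed level was 25888 to 41381 CPM in WT and 45960 to 53539 CPM in Aire-KO. Of this, Cd74 alone made up 8895 and 11999 CPM in WT and 16518 and 19812 CPM in Aire-KO. CPM are counts for each 1000000 counts of the library size after scaling by trimmed mean of M-values (TMM). RPKM are CPM per kilobase of the ID's exons.

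More chemokine genes were higher in WT than lower. By edgeR's quasi-likelihood test across 20560 genes, 8 of the 40 chemokine genes tested were higher in WT at an adjusted p under 0.05, beside 6.3% of all genes tested, and 0 were lower, beside 0.268%. At an unadjusted p under 0.05, 1 was lower, and DESeq2 also called 0 lower. The 8 were Ppbp, Xcl1, Cxcl17, Cxcl15, Ccl24, Cxcl5, Ccl1 and Ccl20. Ccl26 and Ccl28, the remaining members, had 0 counts in every library. Ccl24, Cxcl15 and Ppbp passed the filter on low counts through the WT libraries alone, as did 1543 of the 20560 genes, and so had to differ. The median log2 fold change, WT over Aire-KO, was 1.29 over the 40 members (1.44 with the copies Ccl21b, Ccl21c and Ccl21d, whose counts are the same, taken once) and -0.03 over all genes tested.

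These counts moved with the fit. With experiment as a term beside genotype (the replicate block), 27 members were higher and 1 was lower, beside 15.8% and 9.26% of all genes. DESeq2 called 18 members higher, beside 13.9%, and 0 lower, beside 2.24%. Without the first WT library 13 members were higher, beside 6.12% of all genes tested, and without the first Aire-KO library 14, beside 15%. Without the WT library of the replicate experiment 6 were higher, beside 4.4%, and without the Aire-KO library of that experiment 17, beside 11%. None of these 4 fits called a member lower.

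The values themselves separated more often than the tests called. In 27 of the 40 members both WT libraries lay above both Aire-KO libraries, beside 29.3% of all genes tested, and in 2 (Ccl25 and Cxcl16) both lay below, beside 20.9%. The other 11 overlapped. A difference of at least 4-fold in each experiment taken alone, with at least 20 counts in 1 library, was met by 11 members in the direction of WT, beside 12.5% of 20611 genes, and by 0 in the other direction, beside 0.291%.

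**Figure D1:**
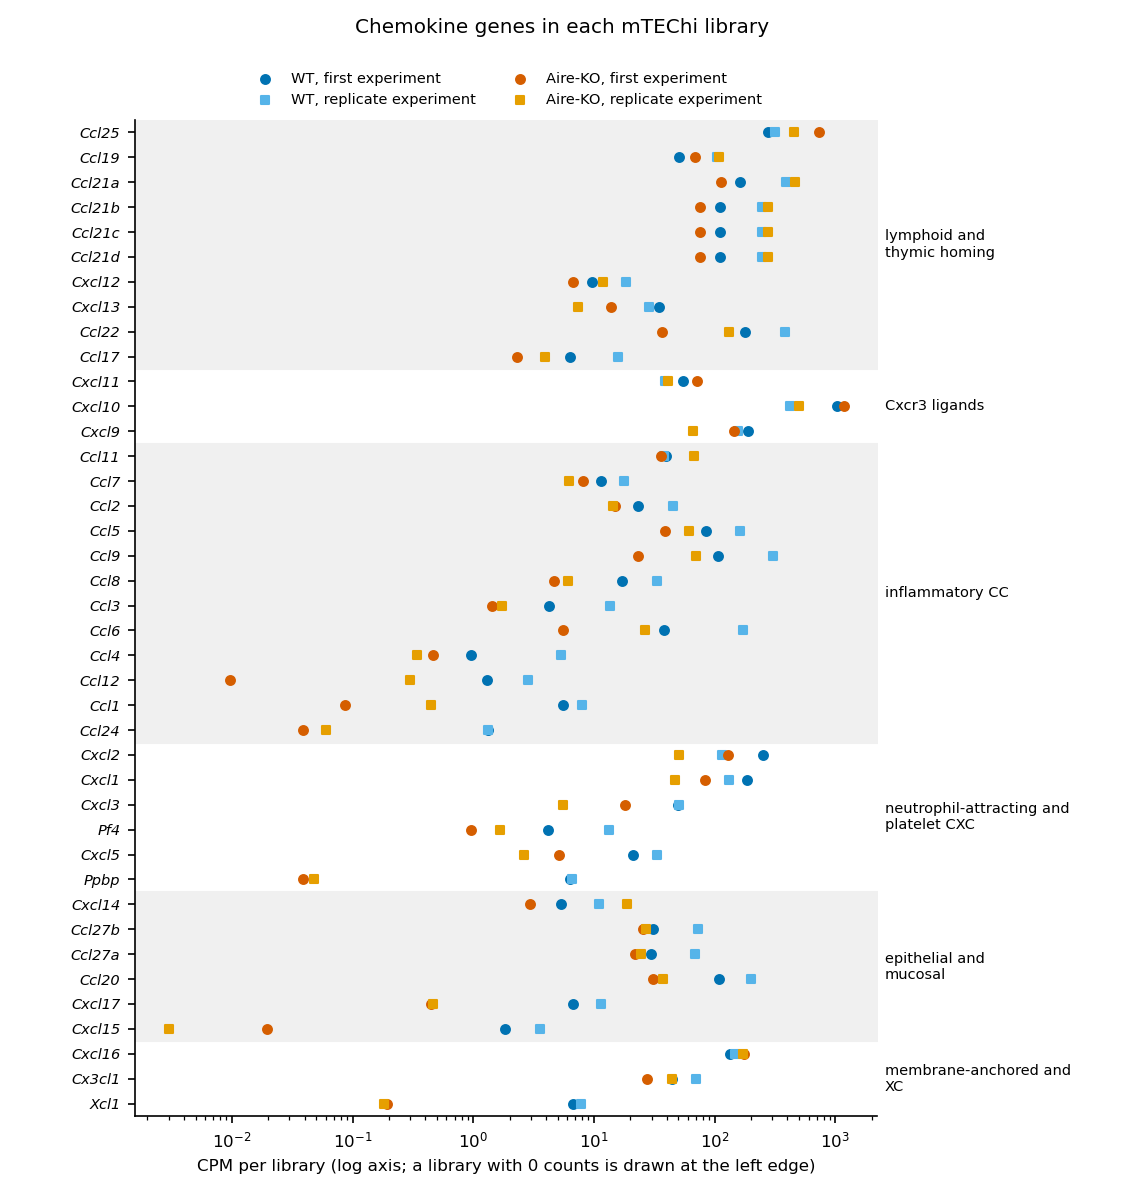
CPM of the 40 detected chemokine genes (rows, grouped by role) in each of the 4 libraries (points) on a log axis. The blue WT points sit to the right of the orange Aire-KO points in 27 rows, with wide gaps for Ppbp, Cxcl15, Xcl1, Ccl24, Cxcl17 and Ccl1, and Cxcl15 had 0 counts in the Aire-KO library of the replicate experiment.

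**Figure D2:**
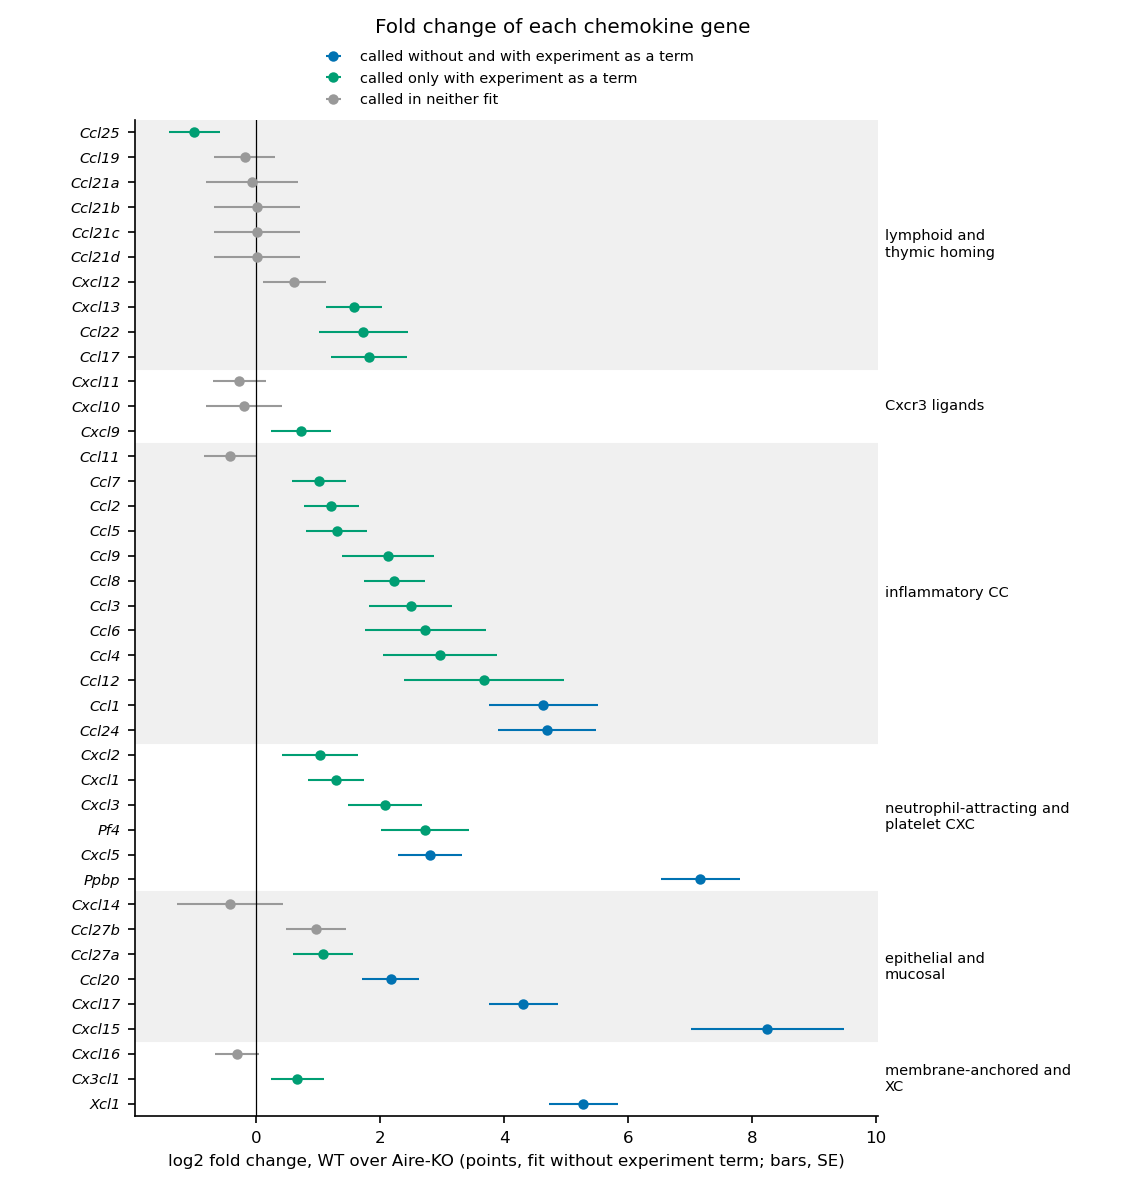
Log2 fold change of each detected chemokine gene (positive where WT is higher) with its standard error, from the fit without an experiment term. The 8 genes called without and with the experiment term (blue) run from 2.17 (Ccl20) to 8.24 (Cxcl15), 20 are called only with it (green), among them Ccl25 at -1.0, and the lymphoid homing genes run from -1.0 (Ccl25) to 1.82 (Ccl17).

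Of the 10 lymphoid and thymic homing chemokines, 0 passed the test, and their median log2 fold change was 0.02, or 0.32 with Ccl21b, Ccl21c and Ccl21d taken once. Their levels in RPKM ranged widely, from Ccl25, Ccl21a and Ccl22 among the 8 most abundant chemokines down to Cxcl12. Ccl25, which draws Ccr9-bearing progenitors into the thymus, stood at 263 and 297 RPKM in the WT libraries and 688 and 432 RPKM in the Aire-KO libraries. It was the member with the lowest fold change. Both WT libraries lay below both Aire-KO libraries, with a log2 fold change of -1.0 ± 0.41 (SE) and an adjusted p of 0.23 by edgeR, which became -0.96 and 0.021 with the replicate block. Leaving out 1 library gave -1.31 to -0.63, with adjusted p of 0.20 or more.

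Ccl21a, with Ccl19 a ligand of Ccr7 on thymocytes moving to the medulla, was at 122 and 289 RPKM in WT and 83.96 and 346 RPKM in Aire-KO. The libraries overlapped and divided by experiment rather than by genotype, and the log2 fold change of -0.06 ± 0.74 (SE) turned to 0.14 with the replicate block and to 0.18 with library sizes alone. Ccl21b, Ccl21c and Ccl21d had the same count as each other in every library and are near-identical copies, and the lengths given for Ccl19, Ccl21a, Ccl21b, Ccl21c and Ccl27b add up several loci, so that the RPKM of these genes are uncertain.

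Ccl22, a ligand of Ccr4 made in the medulla, was at 98.5 and 211 RPKM in WT and 20.1 and 73.2 RPKM in Aire-KO. Both WT libraries were above both Aire-KO libraries. The log2 fold change of 1.73 ± 0.71 (SE) had an adjusted p of 0.23 by edgeR and of 0.00056 with the block, and of 0.0055 without the Aire-KO library of the replicate experiment (2.94). It was 1.03 (0.68) without the WT library of the replicate experiment, 1.08 (0.43) without the first Aire-KO library and 2.03 (0.11) without the first WT library, with the adjusted p in parentheses. Cxcl12, the ligand of Cxcr4 on early thymocytes, was low, at 5.16 and 9.89 RPKM in WT and 3.55 and 6.27 RPKM in Aire-KO, and overlapped. With the block, 3 of the 10 homing genes were higher (Ccl17, Ccl22 and Cxcl13), beside 15.8% of all genes, and 1 lower (Ccl25), beside 9.26%. Ccl17, the other Ccr4 ligand, and Cxcl13, the ligand of Cxcr5 on B cells, had log2 fold changes of 1.82 and 1.58.

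The Cxcr3 ligands, which interferons induce and which attract effector T cells, held the most abundant chemokine. Cxcl10 was at 978 and 395 RPKM in WT and 1103 and 473 RPKM in Aire-KO, ranking 54 by mean RPKM among all genes with a length. The 2 libraries of the first experiment were both above those of the replicate experiment, and the genotypes overlapped (log2 fold change -0.20 ± 0.61 SE, which turned to 0.16 with library sizes alone). Cxcl9 was at 64.6 and 54.2 RPKM in WT and 49.4 and 22.6 RPKM in Aire-KO, with a log2 fold change of 0.72 ± 0.48 (SE) and an adjusted p of 0.49 by edgeR, or 0.035 with the block. None of the 3 ligands was called without the block, and the RefSeq ID kept for Cxcl11 is that of a noncoding transcript.

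Mean RPKM over the 4 libraries placed Cxcl10 first at 737, followed by Ccl25 at 420.1, Ccl21a at 210.1, Ccl5 at 163, Cxcl2 at 126, Cxcl1 at 118, Ccl20 at 118 and Ccl22 at 101. The ranges over the libraries overlapped between all neighbours in this order. Summed over the family, with Ccl21b, Ccl21c and Ccl21d counted once, the level was 3330 and 3857 CPM in WT and 3087 and 2756 CPM in Aire-KO, so that the total differed less than many of its members.

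Of the inflammatory CC chemokines, which recruit monocytes, eosinophils and effector T cells, 2 of 12 tested (Ccl1 and Ccl24) were higher in WT, beside 6.3% of all genes, and 0 lower. Their median log2 fold change was 2.36. Ccl1, the ligand of Ccr8, had 883 and 707 counts in WT and 9 and 74 in Aire-KO, or 5.53 and 8.02 CPM beside 0.0873 and 0.446 CPM. The WT libraries were far above the Aire-KO libraries, with a log2 fold change of 4.63 ± 0.88 (SE) and an adjusted p of 0.038 by edgeR. The change was 3.92 without the first Aire-KO library and 6.25 without the other, and was called in each case.

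Ccl24, an eosinophil attractant that acts on Ccr3, had 213 and 117 counts in WT and 4 and 10 in Aire-KO. Its log2 fold change was 4.70 ± 0.79 (SE), with an adjusted p of 0.031 by edgeR. That p is not evidence on its own, because Ccl24 passed the filter on low counts through the WT libraries alone. The log2 fold change was 4.58 without the first WT library and 4.70 without the other. Ccl12, a monocyte attractant, had 209 and 248 counts in WT and 1 and 50 in Aire-KO, and was not called (log2 fold change 3.67 ± 1.29 SE, adjusted p of 0.16 by edgeR, 0.0084 with the block and 0.014 by DESeq2). Its Aire-KO libraries differed more from each other than its WT libraries did, and its log2 fold change was 2.76 without the first Aire-KO library (adjusted p of 0.011 by edgeR) and 7.57 without the other (2.5e-07). Without the first WT library it was 3.96 (0.058), and without the other WT library 2.97 (0.40).

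Ccl6 and Ccl9, ligands of Ccr1 on myeloid cells, differed between the experiments as well as between the genotypes. Ccl6 was at 38.1 and 172 CPM in WT and 5.49 and 26.3 CPM in Aire-KO. Ccl9 was at 106 and 305 CPM in WT and 23.3 and 70.6 CPM in Aire-KO. Within each experiment the ratio hardly changed: the log2 ratios of Ccl6 were 2.80 and 2.71 and those of Ccl9 were 2.18 and 2.11. The adjusted p of Ccl6 was 0.17 by edgeR without the block and 4.2e-05 with it, and that of Ccl9 was 0.15 and 0.00013. Both were also called by DESeq2 (adjusted p of 0.012 and 0.024), without the first WT library (0.0058 and 0.027) and without the Aire-KO library of the replicate experiment (7.1e-05 and 0.0034). Neither was called without the WT library of the replicate experiment, where the log2 fold changes were 1.21 and 1.13 (adjusted p of 0.57 and 0.58 by edgeR), or without the first Aire-KO library, where they were 2.00 and 1.54 (0.056 and 0.17).

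Ccl5, a T cell and monocyte attractant, was at 158 and 305 RPKM in WT and 72.5 and 116 RPKM in Aire-KO, and Ccl2, which draws monocytes through Ccr2, was at 23.0 and 44.9 CPM in WT and 15.0 and 14.4 CPM in Aire-KO. In both genes the WT libraries were above the Aire-KO libraries. Their log2 fold changes were 1.30 ± 0.49 (SE) and 1.21 ± 0.44 (SE), with adjusted p of 0.19 and 0.18 by edgeR, or 0.0020 and 0.017 with the block. Leaving out 1 library gave 0.73 to 1.67 for Ccl5 and 0.66 to 1.52 for Ccl2, lowest for both without the WT library of the replicate experiment. With the block 11 of the 12 tested inflammatory CC genes were higher, beside 15.8% of all genes. Ccl11, which draws eosinophils, was the exception, with 36.2 to 67.3 CPM, a log2 fold change of -0.42 and overlapping libraries.

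Of the 6 neutrophil-attracting and platelet CXC chemokines 2 (Cxcl5 and Ppbp) were higher in WT, beside 6.3% of all genes, and all 6 had positive log2 fold changes with a median of 2.40. Ppbp, the platelet basic protein gene, had 1012 and 578 counts in WT and 4 and 8 in Aire-KO. This was 6.34 and 6.56 CPM in the WT libraries, which differed little, and its log2 fold change was 7.16 ± 0.63 (SE) with an adjusted p of 0.018 by edgeR. That p is not evidence on its own, because Ppbp passed the filter on low counts through the WT libraries alone. Pf4, also a gene of platelets and their precursors, was at 4.13 and 13.2 CPM in WT and 0.960 and 1.66 CPM in Aire-KO. Its log2 fold change was 2.72 ± 0.71 (SE), with an adjusted p of 0.077 by edgeR, 0.0018 with the block, 0.0015 by DESeq2, 0.047 with library sizes alone and 0.042 without the filter on low counts. Leaving out the first WT library, the first Aire-KO library or the Aire-KO library of the replicate experiment also brought Pf4 under the threshold (adjusted p of 0.0069, 0.013 and 0.00083 by edgeR), whereas without the WT library of the replicate experiment its log2 fold change was 1.63, with an adjusted p of 0.42.

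Cxcl5, made by epithelial cells and recognised by Cxcr2 on neutrophils, was at 21.1 and 33.1 CPM in WT and 5.14 and 2.62 CPM in Aire-KO, a log2 fold change of 2.81 ± 0.52 (SE) with an adjusted p of 0.037 by edgeR. Cxcl1, another Cxcr2 ligand, was at 187 and 131 CPM in WT and 82.7 and 47.1 CPM in Aire-KO, without overlap. Cxcl2, also of this kind, was at 251 and 116 CPM in WT and 129 and 50.3 CPM in Aire-KO, and overlapped across the experiments. The log2 fold changes of Cxcl1 and Cxcl2 were 1.29 ± 0.45 (SE) and 1.03 ± 0.61 (SE), with adjusted p of 0.16 and 0.42 by edgeR and of 0.0016 and 0.0043 with the block. Leaving out 1 library gave 0.93 to 1.75 for Cxcl1 and 0.32 to 1.86 for Cxcl2, highest for both without the first Aire-KO library. The lowest value of Cxcl2 was that without the first WT library. All 6 genes of this role were higher with the block, beside 15.8% of all genes.

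Some of these genes carry the binding motif of NF-κB, the factor best known for inducing inflammatory chemokines, close to their start. The κB consensus was searched by name on both strands of the RefSeq promoters, which run from 250 bases before to 50 after a gene's start on GRCm38.p6. A match was found in 8 of the 30 chemokine genes with an entry (26.7%) and in 2581 of 27025 genes overall (9.55%). The windows below show it, in capitals, in Cxcl1, Cxcl2 and Cxcl3, which are Cxcr2 ligands of the same gene cluster, and in Ccl20 and Ccl1, which are the members that passed the test and have a match. They are chr5:90891164-90891193 (+), chr5:90903792-90903821 (+), chr5:90786018-90786047 (+), chr1:83116676-83116705 (+) and chr11:82179989-82180018 (-). In Cxcl1, Cxcl2, Cxcl3 and Ccl1 a match on the other strand overlaps the one shown, and the match in Ccl20 is on the other strand. Cxcl10, Ccl9 and Ccl27a also had a match.
Cxcl1: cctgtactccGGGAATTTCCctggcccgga
Cxcl2: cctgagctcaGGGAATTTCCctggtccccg
Cxcl3: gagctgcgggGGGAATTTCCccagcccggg
Ccl20: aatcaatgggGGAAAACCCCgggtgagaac
Ccl1: tctgcacttgGGGAAGTTCCcaaggccact
The capitals are the same in Cxcl1, Cxcl2 and Cxcl3, and lie 71, 97 and 73 bases before the start. A match is a run of letters, and neither binding nor an effect on these counts was measured.

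Of the epithelial and mucosal chemokines 3 of 6 tested (Ccl20, Cxcl17 and Cxcl15) were higher in WT, beside 6.3% of all genes, and 0 lower. Ccl20, which attracts Ccr6-bearing cells to epithelia, was at 108 and 199 CPM in WT and 31.1 and 37.4 CPM in Aire-KO. It was the most abundant member called, with a log2 fold change of 2.17 ± 0.46 (SE) and an adjusted p of 0.047 by edgeR, which became 0.18 without the WT library of the replicate experiment and 0.051 without the first Aire-KO library. Cxcl17, a chemokine of mucosal tissues, was at 6.69 and 11.4 CPM in WT and 0.446 and 0.464 CPM in Aire-KO. The Aire-KO libraries were close together, and the log2 fold change was 4.31 ± 0.56 (SE), with an adjusted p of 0.019 by edgeR.

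Cxcl15, known as lungkine from its expression in lung epithelium, had 291 and 317 counts in WT and 2 and 0 in Aire-KO. The ratio of the pooled counts per library size, WT over Aire-KO, was 330.1 with an exact 95% interval of 91.0 to 2732 that covers counting error only. The adjusted p by edgeR was 0.024, which is not evidence on its own, because Cxcl15 passed the filter on low counts through the WT libraries alone. The remaining tested members of this role, Ccl27a, Ccl27b and Cxcl14, were not called, and the skin chemokine genes Ccl27a and Ccl27b are near-identical copies whose reads cannot be assigned with certainty.

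Among the membrane-anchored and XC chemokines, Xcl1, the ligand of Xcr1 on cross-presenting dendritic cells, had 1077 and 693 counts in WT and 20 and 30 in Aire-KO. These were 6.75 and 7.86 CPM in WT and 0.194 and 0.181 CPM in Aire-KO, with little spread in either genotype, and the log2 fold change was 5.28 ± 0.55 (SE) with an adjusted p of 0.018 by edgeR. Cx3cl1, a ligand held at the cell surface and recognised by Cx3cr1 on monocytes, was at 44.1 and 69.5 CPM in WT and 27.6 and 44.0 CPM in Aire-KO. Its log2 fold change was 0.67 ± 0.43 (SE), with an adjusted p of 0.47 by edgeR and 0.038 with the block. Cxcl16, the surface-held ligand of Cxcr6, was at 134 and 148 CPM in WT and 176 and 171 CPM in Aire-KO. Both of its WT libraries were lower, and the log2 fold change was -0.30 ± 0.36 (SE) with an adjusted p of 0.73 by edgeR, and turned to 0.0044 with library sizes alone.

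Many chemokine genes lie in clusters, and members within 500 kb of each other were read in gene order on mm9. On chromosome 5 the cluster of Cxcl5, Ppbp, Pf4, Cxcl3, Cxcl15, Cxcl1 and Cxcl2 (chr5:91188325-91334935) ran from a log2 fold change of 1.03 at Cxcl2 to 8.24 at Cxcl15. All 7 had positive values and 3 were called (Cxcl5, Ppbp and Cxcl15), of which Ppbp and Cxcl15 passed the filter on low counts through the WT libraries alone. With the block, which called 15.8% of all genes higher, 7 were called. On the same chromosome Cxcl9, Cxcl10 and Cxcl11 (chr5:92750357-92794511) ran from -0.27 to 0.72 with 0 called.

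On chromosome 11 the 5 genes from Ccl5 to Ccl4 (chr11:83339280-83478185) ran from 1.30 to 2.96, with 0 called and all 5 called with the block. The only other tested gene lying wholly inside this interval, E230016K23Rik, had a log2 fold change of -0.36 with an adjusted p of 0.74 by edgeR. The 6 genes from Ccl2 to Ccl1 (chr11:81849073-82119192) ran from -0.42 at Ccl11 to 4.63 at Ccl1, with 1 called and 5 called with the block. Neighbouring genes thus differed widely in their values: Ccl11 and Ccl12 are next to each other in this order and had log2 fold changes of -0.42 and 3.67. On chromosome 8, Ccl22, Cx3cl1 and Ccl17 (chr8:97269490-97335935) ran from 0.67 to 1.82, and on chromosome 4 the 4 genes from Ccl21c to Ccl21a (chr4:42391951-42787525) ran from -0.18 to 0.97. In both, 0 were called, and with the block 3 were called on chromosome 8 and 0 on chromosome 4.

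**Figure D3:**
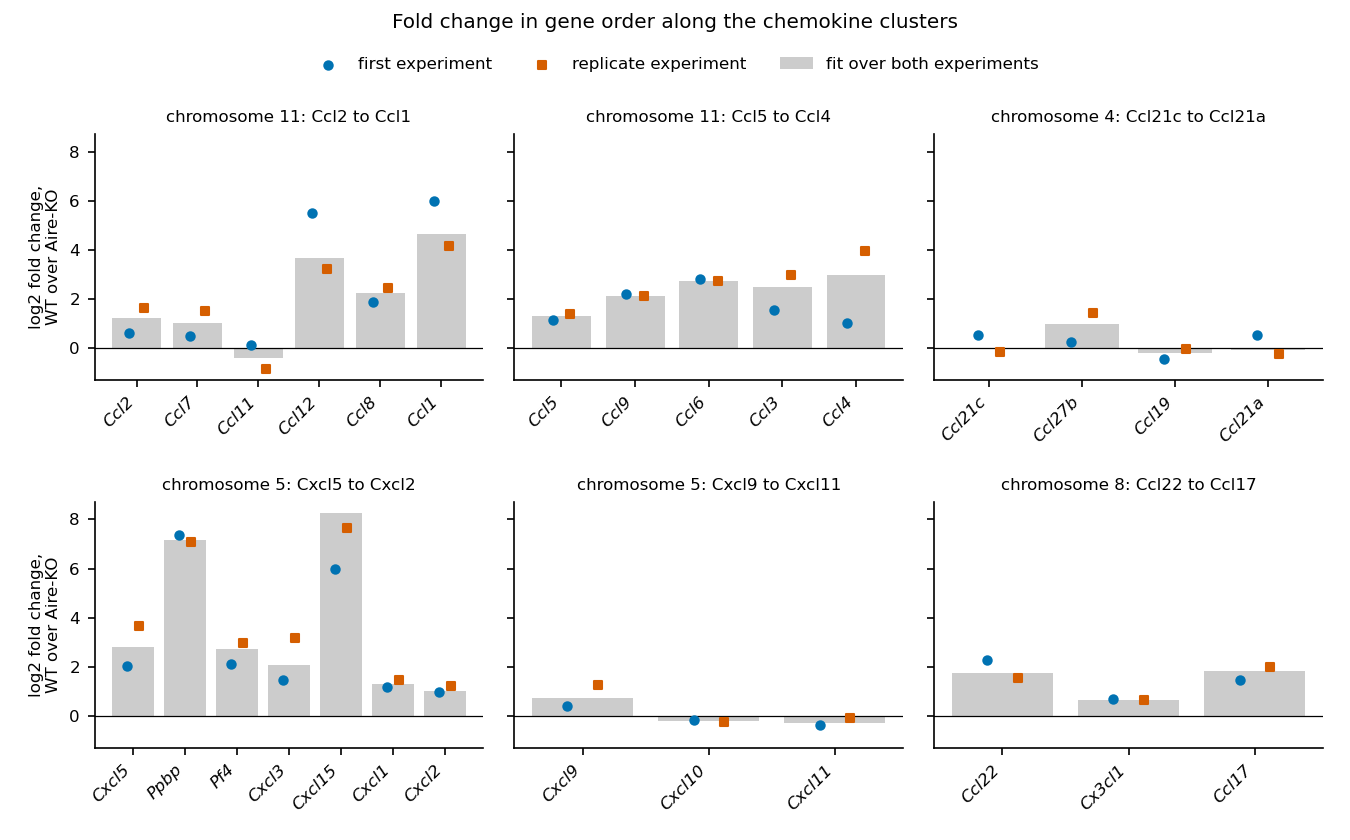
Log2 fold change, WT over Aire-KO, in gene order along the 6 clusters of at least 3 chemokine genes. Bars show the fit over both experiments and points the ratio within each experiment, with counts under 3 set to 3. In the cluster from Cxcl5 to Cxcl2 all bars and points are above 0, and Ppbp (7.16) and Cxcl15 (8.24) stand above their neighbours.

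The chemokine receptors are mostly genes of leukocytes, and 1 of the 24 listed passed the test, in the opposite direction. The test called 0.268% of all genes lower, and 0 receptors were higher, beside 6.3%. Ackr2, a decoy receptor that scavenges inflammatory CC chemokines, was at 7.34 and 3.62 CPM in WT and 48.4 and 22.6 CPM in Aire-KO. It was lower in WT in both experiments, with a log2 fold change of -2.69 ± 0.58 (SE) and an adjusted p of 0.0496 by edgeR, or 0.00010 with the block. Ccr6, the receptor of Ccl20, was at 9.37 and 9.49 CPM in WT and 39.1 and 24.2 CPM in Aire-KO. Its log2 fold change was -1.75 ± 0.41 (SE), opposite in sign to that of its ligand, with an adjusted p of 0.061 by edgeR and 0.0016 with the block, and it is given here after its values were seen.

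With the block 8 of the 24 receptors were higher in WT (Ccr1, Ccr2, Ccrl2, Cxcr1, Cxcr2, Cxcr6, Ackr1 and Ackr3), beside 15.8% of all genes. In the same fit 3 were lower (Ackr2, Ccr6 and Cxcr5), beside 9.26%. Cxcr1 had 127 and 33 counts in WT and 4 and 0 in Aire-KO. It passed the filter on low counts through the WT libraries alone, so its calls with the block and by DESeq2 are not evidence on their own. The number of receptors called also moved with the library left out, as did the share of all genes called, so these counts are not compared. DESeq2 called 6, 4 of them higher and 2 lower, beside 13.9% and 2.24% of all genes. The receptors' median log2 fold change was 0.71, beside 1.29 for the ligands.

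Markers of other cell types moved with some of these groups. Of the neutrophil list (S100a8, S100a9, Csf3r, Ngp, Camp, Ltf, Mpo, Elane and Retnlg) 6 of 9 tested genes were higher in WT, beside 6.3% of all genes, and 0 lower, and 9 were higher with the block, beside 15.8%. Its summed level was 261 and 553 CPM in WT and 28.9 and 20.1 CPM in Aire-KO. Elane, 1 of these genes, had 0 counts in both Aire-KO libraries and so passed the filter on low counts through the WT libraries alone. Of the dendritic cell and macrophage list 3 of 15 were higher (Itgam, Adgre1 and Cd14), beside 6.3% of all genes. With the block 8 were higher, beside 15.8%, and 1 lower, beside 9.26%, and by DESeq2 7 were higher, beside 13.9%. The median log2 fold change of these genes was 2.08 with 13 of 15 positive. The exceptions were Zbtb46, at -0.95 and the gene called lower with the block, and Flt3, at -0.10. Their summed level was 635 to 1010 CPM in WT and 619 to 656 CPM in Aire-KO, of which Lyz2, with a log2 fold change of 0.10, made up 346 to 661 CPM. Ptprc, which encodes the CD45 used to exclude leukocytes in the sort, was at 13.0 and 9.0 CPM in WT and 5.90 and 1.95 CPM in Aire-KO, with an adjusted p of 0.24 by edgeR. The list of 3 pan-leukocyte genes that holds Ptprc went the other way in its sum, with 602 and 1039 CPM in WT and 1093 and 1712 CPM in Aire-KO. With the block 1 of its genes was higher in WT and 1 lower.

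Of the fibroblast list 3 of 9 were lower in WT (Col1a2, Col3a1 and Dpt), beside 0.268% of all genes, and 6 with the block, beside 9.26%. In this list 0 were higher, with summed levels of 153 to 190 CPM in WT and 387 to 447 CPM in Aire-KO. In the other lists 0 of 16 thymocyte genes, 1 of 6 B cell genes (Cd22, higher), 0 of 7 endothelial genes, 1 of 5 cortical epithelial genes (Enpep, higher), 1 of 7 microfold-like genes (Gp2, higher), 0 of 6 tuft-like genes and 0 of 3 pan-leukocyte genes passed. The same test called 6.3% of all genes higher and 0.268% lower. Of the thymocyte genes, 14 of 16 had positive log2 fold changes with a median of 1.18, and 11 did not overlap and were higher in WT, beside 29.3% of all genes. With the block 6 of these 16 genes were called higher, beside 15.8%, and by DESeq2 3, beside 13.9%. Their summed level was 62.3 to 98.4 CPM in WT and 54.2 to 64.5 CPM in Aire-KO. The part of these cell types in the chemokine values was not tested, and in such pooled samples fewer cells of a type and less RNA per cell cannot be told apart.

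**Figure D4:**
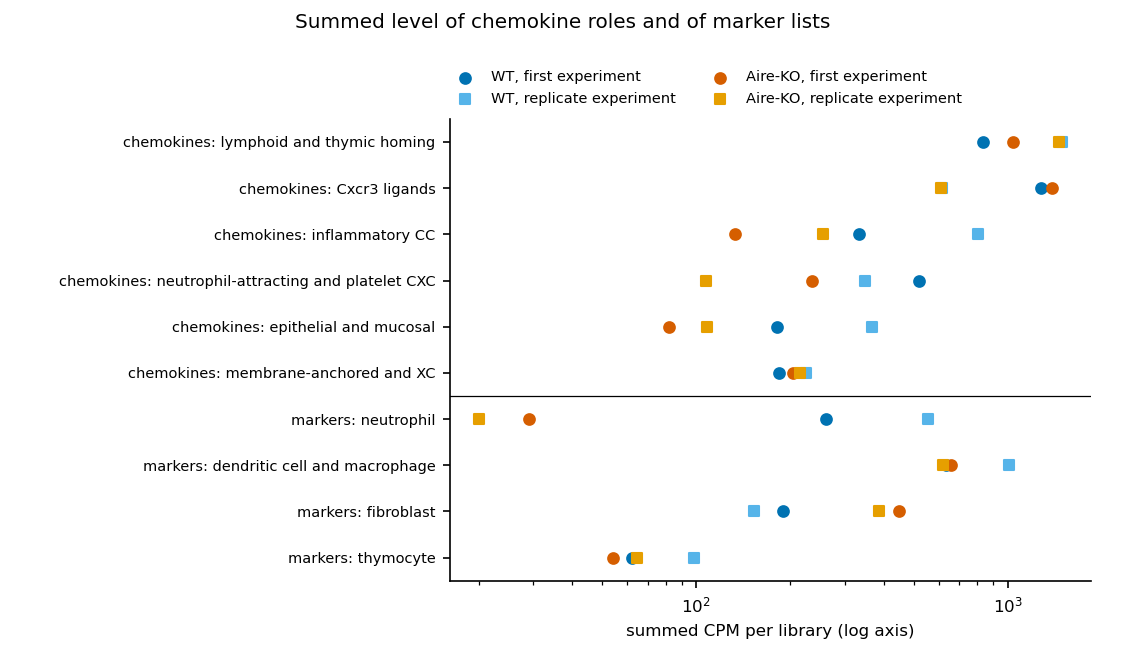
Summed CPM of each chemokine role (above the line) and of 4 marker lists (below it) in the 4 libraries, on a log axis. The inflammatory CC, neutrophil and platelet CXC, and epithelial roles lie higher in both WT libraries, as do the neutrophil markers (261 and 553 CPM beside 28.9 and 20.1 CPM), while the homing genes and Cxcr3 ligands overlap between genotypes.

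The series also counted reads on either side of proximal polyadenylation sites (pAs), which end a transcript with a short 3'UTR. The d3'UTR ratio is the reads per bp downstream of the proximal pA over the reads per bp in the rest of the last exon, so that a low ratio means few long 3'UTR transcripts. Such a site was given for 11 chemokine genes among 6559 genes. The bases that end at the proximal pA are shown for some of the transcripts described below, from the mm9 genome, with the AATAAA signal in capitals where it occurs. They are chr11:83388167-83388196 (-) for Ccl9, chr11:83401898-83401927 (-) for Ccl6, chr5:91230898-91230927 (+) for Cxcl15, chr5:92752020-92752049 (-) for Cxcl9 and chr8:97304958-97304987 (+) for Cx3cl1, all in the last exon of the GENCODE transcript that matches the counted exon within 5 bp.
Ccl9: cagtaagccactAATAAAgtgcatctatgc
Ccl6: tgagtgcccccAATAAAgtccactccatgt
Cxcl15: aaatctgaAATAAAaatatgtcttaattga
Cxcl9: tcctgtttcacaagtaaacacttcgctgct
Cx3cl1: ctgtacagagcgcaccaccatcaccatcaa
The signal stands in the first 3, with 12, 13 and 16 bases between its last base and the end of the window. Neither it nor its commonest variant, ATTAAA, is in the windows of Cxcl9 and Cx3cl1. Among the windows not shown, those of Ccl2, Ccl24 and Ppbp also lack both, that of Cxcl12 holds the signal and that of Ccl27a holds the variant.

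Most chemokine transcripts had a lower ratio than the median transcript. With at least 20 upstream reads in the library, the median ratio over chemokine transcripts was 0.241 in the first WT library (n = 10) and 0.123 in the other (n = 10), beside 0.431 and 0.352 over all transcripts. In Aire-KO it was 0.168 (n = 7) and 0.117 (n = 7), beside 0.413 and 0.339, over a set without Ppbp, Cxcl15 and Ccl24, which had too few reads there. All these medians include Cxcl12, whose d3'UTR of 54 bp can hold few whole reads. With d3'UTRs of at least 100 bp alone, the median WT ratio was 0.212 (n = 9), beside 0.181 (n = 10). The chemokine median was below the overall median in each of the 4 libraries, and no test of this difference was made.

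Ccl9 had the lowest mean ratio in WT among the transcripts with a d3'UTR well over the read length, with 0.0835 and 0.0455 in WT and 0.0608 and 0.0348 in Aire-KO, over 1748 bp downstream of the pA. Ccl6 was at 0.159 and 0.140 in WT and 0.168 and 0.167 in Aire-KO. Cxcl9 was at 0.134 and 0.0953 in WT and 0.119 and 0.118 in Aire-KO. In Ccl9 the ratio of the first experiment was above that of the replicate experiment in both genotypes, while for Ccl6 and Cxcl9 the genotypes lay close together.

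Cx3cl1 was at the other end with 1.26 and 1.014 in WT and 1.02 and 0.978 in Aire-KO. Cxcl16 was at 0.405 and 0.219 in WT and 0.321 and 0.211 in Aire-KO, and Ccl2 at 0.300 and 0.249 in WT and 0.263 and 0.114 in Aire-KO. The exact 95% intervals of Ccl2 were 0.217 to 0.285 in the WT and 0.0882 to 0.145 in the Aire-KO library of the replicate experiment, which cover counting error only. Those of the first experiment overlapped, at 0.265 to 0.340 and 0.213 to 0.322.

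The ratios of 3 genes with few reads in Aire-KO could be computed in WT alone. Ppbp was at 0.600 and 0.578, close between the libraries and above the overall medians, and Cxcl15 was at 0.317 and 0.106. Ccl24 was at 0.181 and 0.0417, the latter from 4 reads downstream of the pA. Cxcl12 had 0 reads in its d3'UTR of 54 bp in every library, a stretch in which few reads of 50 bases can lie whole, and Ccl27a had too few upstream reads for a ratio.

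The change of the ratio between genotypes was tested by edgeR as the interaction of region and genotype across 6500 genes. It was called in 0 of the 11 chemokine transcripts tested, beside 0% of all genes. Only 6 of the 11 had at least 20 upstream reads in each of the 4 libraries and any read in the d3'UTR. They were Ccl2, Ccl6, Ccl9, Cx3cl1, Cxcl16 and Cxcl9. Of the other 5, Cxcl12 had 0 reads in its d3'UTR in every library, so its change could not be estimated. The rest had under 20 upstream reads in both Aire-KO libraries. At an unadjusted p under 0.05 there were 0 chemokine transcripts and 107 genes. With the replicate block 369 genes were under that unadjusted level, Ccl9 among them (unadjusted p of 0.049, adjusted p of 0.87 by edgeR), with a log2 change of usage, WT over Aire-KO, of 0.42 ± 0.18 (SE). Without the first Aire-KO library Ccl2 was the chemokine transcript under it.

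**Figure D5:**
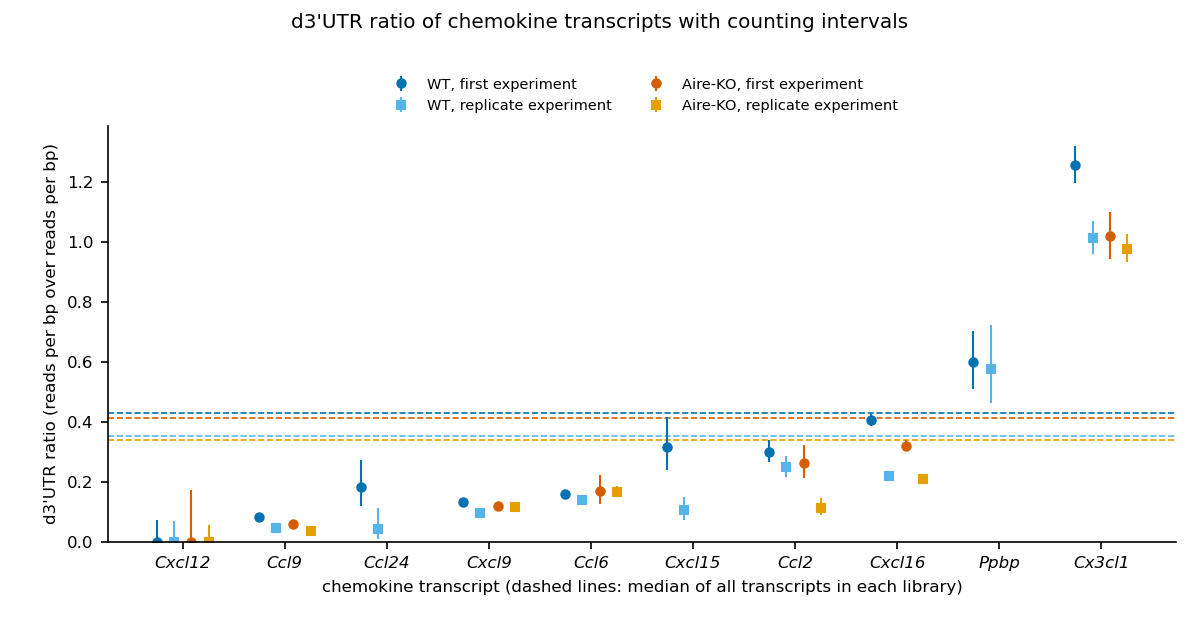
d3'UTR ratio of the 10 chemokine transcripts with at least 20 upstream reads in both WT libraries (points, 1 per library; bars, exact 95% counting intervals). Dashed lines mark the median of all transcripts in each library, and points of Ccl9, Cxcl9 and Ccl6 lie well below them while those of Cx3cl1 (0.978 to 1.26) lie above.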

How the data were processed

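Poly(A) RNA of sorted mTEChi was sequenced by the authors, reduced to single-end reads of 50 bases, aligned with Bowtie 1.0.0 to mm9 and counted when a read lay wholly within exons. The deposited values are raw counts per RefSeq ID and counts per 3'UTR feature with lengths, as the authors gave them. The kit does not mark strand, so overlapping and antisense genes cannot be told apart. How reads with several alignments were treated is not given in the sources used here.

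Counts were fitted with edgeR 4.0.16 (TMM, filterByExpr, genotype only, R 4.3.3), and p-values were adjusted over all genes by Benjamini-Hochberg. DESeq2 1.42.0 was an alternative. IDs were named through RefSeq (29352 of 30794 matched) and the ID with most counts kept per gene. An adjusted p under 0.05 was called. The SE is the log2 fold change over the square root of F. The study describes 1 library of each genotype as a replicate experiment, and says no more on what its libraries share. Deviations from the genotype mean correlated at 0.523 between the first WT and Aire-KO libraries over 20560 genes. The d3'UTR test had a term per library. Binomial intervals are exact. Cluster positions are from GENCODE vM1.

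In data simulated from these libraries, without an experiment effect, the gene test was run with genotype only. It recovered 0 of 50 genes changed 2-fold, 24 of 50 changed 4-fold, 44 of 50 changed 8-fold and 50 of 50 changed 16-fold. Members, roles, marker and receptor lists were chosen with earlier results of these data known. Values per library are given for members that passed the test, were among the 8 highest by RPKM, differed at least 4-fold in both experiments, or had a d3'UTR and at least 100 upstream reads in both WT libraries.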

Additional observations from a re-analysis of the deposited data

How the results depend on the processing

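With 2 pools per genotype and genotype alone in the fit, mostly large changes could be called. With the block, smaller changes were called too, such as that of Cx3cl1 at 0.67. Against 8 chemokine genes higher in WT, DESeq2 gave 18, library sizes alone 13 and the replicate block 27, and leaving out 1 library gave 6 to 17. Of all genes, 6.3% were called higher by edgeR with genotype only, 13.9% by DESeq2, 10.6% with library sizes alone and 15.8% with the block. In these settings with all 4 libraries, more calls among chemokine genes thus came with more calls among all genes. The 8 genes were kept under each setting with 4 libraries. Against 0 lower, beside 0.268% of all genes, the block gave 1 (Ccl25), beside 9.26%. Against 1 receptor called, DESeq2 gave 6, library sizes alone 3, median-of-ratios factors 3, no filter on low counts 3 and the block 11, and leaving out 1 library gave 0 to 7. The shares of all genes called moved with these receptor counts. Higher and lower, they were 6.3% and 0.268% with genotype only, 13.9% and 2.24% by DESeq2, and 15.8% and 9.26% with the block. They were 10.6% and 0.229% with library sizes alone, 7.19% and 0.418% with median-of-ratios factors, and 7.4% and 0.525% without the filter. The receptor counts are therefore not compared between settings, nor between left-out libraries. Library sizes alone shifted the overall median (log2) from -0.03 to 0.27, and Ccl21a, Cxcl10 and Cxcl16 to 0.18, 0.16 and 0.0044. Ccl21a was also above 0 with the block (0.14) and without the first WT library (0.28) or the Aire-KO library of the replicate experiment (1.28; range over the left-out libraries -0.87 to 1.28), and Cxcl10 without the first Aire-KO library (0.53) or the WT library of the replicate experiment (0.36; range -1.05 to 0.53). The causes were not tested. No call of d3'UTR usage was made under any setting, and the median WT ratio of 0.181 (n = 10) ranged from 0.123 to 0.241 over its alternatives. With all RefSeq IDs or the longest per gene, 8 genes were higher.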
